A study of Mus musculus with 48 samples.

Results

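The ubiquitin-specific proteases (USPs) were taken as all protein-coding mouse genes whose symbol begins with Usp and a digit, without the 1 such gene on the Y chromosome. This rule gave 55 of the 50600 genes in the count files, and 46 of the 55 passed the count filter and were tested. One of the 46, Usp6nl, carries the prefix only because of its resemblance to another gene and encodes a GTPase-activating protein for Rab proteins, not a protease. It was kept because the rule includes it, and no count of called genes in the main tests changed when it was left out.

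RNA was measured in mPDAC cells, a mouse pancreatic ductal adenocarcinoma line. The labels give its background as FVB/N x C57BL6 and an age of 8 weeks, the same for all groups. Of 6 cultures, 3 received 50 µM N6L, an antagonist of the nucleolar protein nucleolin, for 48 h, and 3 were non-treated (NT). Each culture gave a cytoplasmic library and a library of pooled polysomal fractions from the same lysate, so that there were 4 groups of 3 libraries. All 12 libraries come from a single cell line, and the cytoplasm was cleared of nuclei and mitochondria by centrifugation. The p-values therefore measure the spread between cultures of that line only. In the labels the NT cultures carry the numbers 1, 2 and 4, and those with N6L 1, 2 and 3.

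Ubiquitin is joined to proteins as a single unit or as chains, which can send the protein to the proteasome or change where it acts and what it binds. Deubiquitinases remove it, and the USPs, cysteine proteases with a common catalytic fold, are the largest of their families. Individual USPs stabilise proteins such as Mdm2, Myc and Smad signalling components, reset histone ubiquitination, recycle ubiquitin at the proteasome, and remove ubiquitin from ribosomal and nucleolar proteins. Their mRNA levels do not measure enzyme activity.

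The 12 libraries held 19519911 to 44972333 counts each, of which the 55 genes took 0.163% to 0.356%. Cultured ductal cells were recognisable by Krt8, Krt18 and Krt19, with mean levels of 2773, 3464 and 1623 CPM (counts scaled to equal library size), whereas Epcam averaged 0.116 CPM. Markers of leukocytes, endothelium and fibroblasts summed to at most 2.23, 1.01 and 0.964 CPM in any library, and the islet markers were at 0. Of the acinar markers, Cpa1 and Amy2a5 were at 0, while Cela1 averaged 44.9 CPM. RNAs of the nucleus and of mitochondria, examined as marks of fraction purity, differed between treatments, and whether purity itself differed was not tested. The nuclear RNAs Malat1 and Neat1 summed to 76.0 to 128 CPM in NT cytoplasm and to 196 to 229 CPM in N6L cytoplasm. Mitochondrially encoded RNA took 0.454% to 0.966% of NT cytoplasmic counts and 0.121% to 0.242% of N6L cytoplasmic counts. In polysomes the nuclear RNAs summed to 48.6 to 67.6 CPM in NT and to 76.8 to 151 CPM in N6L libraries. Mitochondrially encoded RNA took 0.0454% to 0.116% of NT and 0.0157% to 0.0450% of N6L polysomal counts. The part of these shifts in the USP results was not tested.

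In non-treated cytoplasm the most abundant USP mRNA per length was Usp39. It encodes a spliceosome component with a USP fold that lacks protease activity, and it stood at 73.3, 79.6 and 70.2 CPM per kb of its longest transcript in cultures 1, 2 and 4. Usp10, which removes ubiquitin from p53 and from ribosomal proteins, followed at 49.1 ± 2.67 CPM per kb (SD, n = 3). Usp5, which takes apart unanchored ubiquitin chains, had 37.8 ± 4.38 CPM per kb (SD, n = 3). The values of these 3 genes overlapped neither one another nor those of the next gene. Usp14, an enzyme of the proteasome, had 25.6 ± 4.85 CPM per kb and Usp4 24.0 ± 2.44 CPM per kb (SD, n = 3). From Usp14 down to Usp6nl, ranked 14th at 16.2 CPM per kb, each gene's values overlapped those of the gene next below it. All genes share the same 3 libraries, so this overlap does not show that neighbours were equal. Usp36, at 19.9, 19.5 and 15.4 CPM per kb, lay above its neighbour Usp6nl, at 16.6, 17.5 and 14.5, in each culture. Farther apart in that stretch, all 3 values of Usp14 and of Usp4 lay above all 3 of Usp6nl. Usp9x, a very long mRNA for an enzyme of receptor and Smad signalling, was 40th at 1.39 ± 0.470 CPM per kb (SD, n = 3).

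**Figure D1:**
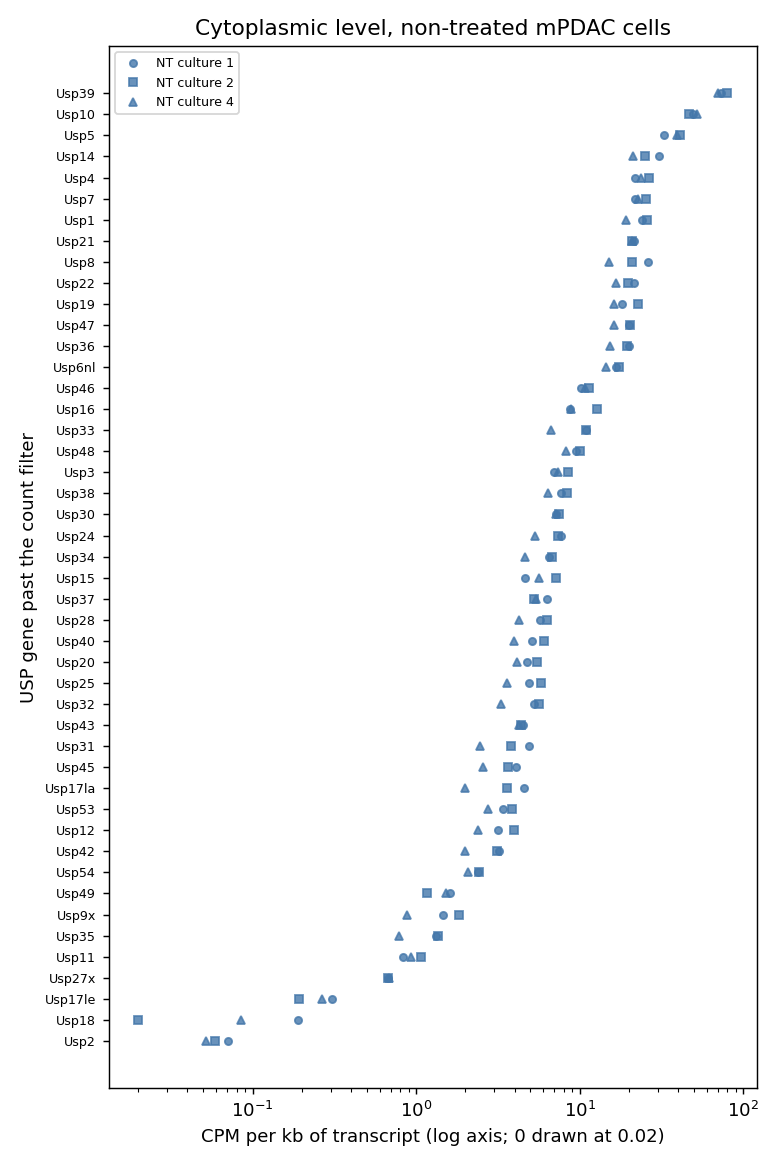
Cytoplasmic level of the 46 tested USP genes in the 3 non-treated cultures, in CPM per kb of the longest annotated transcript on a log axis, ordered by mean; each symbol is 1 culture. Usp39, Usp10 and Usp5 stand above the rest without overlap, and most neighbours below them overlap.

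The 9 untested members were hardly seen. Usp26 had no count in any library, Usp13 had 1 count in all and Usp51 had 3. The remaining 6, namely Usp17lb, Usp17lc, Usp17ld, Usp29, Usp44 and Usp50, reached at most 17 counts in any library. Tested members at the same low level were Usp2, with 155 counts over 12 libraries, Usp17le with 118, and Usp18 with 89.

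For 42 of the 55 genes a promoter sequence was at hand in RefSeq (build GRCm38.p6). The 13 without one include Usp9x, Usp43 and Usp53. Only starts that RefSeq and GENCODE place within 30 bases of each other were used for display, which held for 25 of the 42. The 250 bases before the start of the 3 genes of this kind with the largest called increase in cytoplasm, and of Usp17la, which fell, are shown 5′ to 3′ on the gene's strand. They let the letters before genes that moved in opposite directions be compared. Capitals mark matches on either strand to the letters GGGCGG, called a GC box, to the TATA box with the letters TATAAA, to the box known by its letters CCAAT, or to the E-box with the letters CACGTG. No match shares letters with another in the windows shown.
Usp20, chr2:30982029-30982278, plus strand: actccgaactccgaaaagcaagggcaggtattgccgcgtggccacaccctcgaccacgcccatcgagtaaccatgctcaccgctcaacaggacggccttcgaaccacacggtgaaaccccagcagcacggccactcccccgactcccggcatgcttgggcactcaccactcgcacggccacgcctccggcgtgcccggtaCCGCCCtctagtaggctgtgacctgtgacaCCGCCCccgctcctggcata
Usp38, chr8:81014907-81015156, minus strand: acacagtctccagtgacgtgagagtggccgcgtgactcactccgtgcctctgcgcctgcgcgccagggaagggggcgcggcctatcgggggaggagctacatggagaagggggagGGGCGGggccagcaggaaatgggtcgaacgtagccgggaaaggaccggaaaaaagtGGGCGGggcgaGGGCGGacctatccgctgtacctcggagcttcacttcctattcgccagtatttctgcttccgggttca
Usp28, chr9:48985135-48985384, plus strand: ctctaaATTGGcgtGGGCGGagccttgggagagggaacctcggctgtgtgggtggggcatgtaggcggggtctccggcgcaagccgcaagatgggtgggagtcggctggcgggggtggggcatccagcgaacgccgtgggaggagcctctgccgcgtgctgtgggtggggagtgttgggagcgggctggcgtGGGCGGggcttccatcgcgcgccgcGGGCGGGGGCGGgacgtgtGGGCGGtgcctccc
Usp17la, chr7:104856766-104857015, plus strand: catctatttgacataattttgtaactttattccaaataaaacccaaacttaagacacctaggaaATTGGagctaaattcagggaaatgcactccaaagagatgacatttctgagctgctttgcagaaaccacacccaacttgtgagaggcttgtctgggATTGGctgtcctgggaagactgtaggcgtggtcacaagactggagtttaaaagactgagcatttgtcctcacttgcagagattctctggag

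The windows of Usp20, Usp38 and Usp28 held 2, 3 and 5 GC boxes, that of Usp28 also 1 CCAAT box, and 65.6%, 64.0% and 73.2% G and C. That of Usp17la held 2 CCAAT boxes, none of the other motifs, and 42.4% G and C. A GC box lay in 26 of the 42 USP windows (61.9%), against 32.9% of 27025 RefSeq windows of that length. The GC box holds only G and C, and the median G and C share was 64.4% in USP windows and 52% in all. Windows of equal G and C share were not compared. The CCAAT box was found in 12 of the 42 (28.6%), against 34.5% of all windows. TATA box matches were in 5 (11.9%, against 13.0%) and E-box matches in 4 (9.52%, against 6.05%). These are matches of letters, and no binding was measured.

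With N6L, cytoplasmic USP mRNAs changed mostly upwards. By edgeR's quasi-likelihood test at a Benjamini-Hochberg FDR under 0.05, 17 of 46 members were called (37.0%), against 28.3% of the 13889 genes tested. Of the 17, 15 rose and 2 fell, whereas over all genes 14.5% rose and 13.8% fell. The median log2 change was 0.47 over the 46 members and 0.04 over all genes, and 39 members lay above 0, as did 52.8% of all genes. The N6L and NT cultures did not overlap for 35 members, 31 of them higher with N6L. Over all genes this held for 54.9%, and for 29.3% in the upward direction. These relative levels cannot tell more RNA per cell from a different composition of the cytoplasmic extract.

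The largest cytoplasmic increase was that of Usp9x (ENSMUSG00000031010, X chromosome, 13071498-13173328, GRCm38). Its level was 17.3, 21.6 and 10.5 CPM in NT cultures 1, 2 and 4 and 50.3, 65.8 and 51.7 CPM in N6L cultures 1, 2 and 3. Every N6L culture stood above every NT culture by a wide gap, with a log2 change of 1.76 (SE 0.36, edgeR FDR 0.00454). The 5 tested members whose profile over the 12 libraries was most like that of Usp9x were Usp25, Usp28, Usp32, Usp38 and Usp54, with Pearson r of 0.983, 0.977, 0.971, 0.969 and 0.941 in mean-centred log2 CPM. The points share libraries and their depth, so these values are a description.

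Usp53 and Usp54, related proteins long classed as inactive members of the family, rose together. Usp54 went from 15.7, 15.8 and 13.6 CPM to 34.5, 31.4 and 32.6 CPM, with tight replicates and no overlap (log2 change 1.13, SE 0.22, edgeR FDR 0.00405). Usp53 had a log2 change of 1.03 (SE 0.24, edgeR FDR 0.00774).

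Of the 5 genes listed for p53, Mdm2 and Myc, 4 were tested and rose, where 14.5% of all genes rose. Usp10, which also acts on p53, was listed with the ribosome and is described there. Usp7, which deubiquitinates Mdm2 and p53, measured 103, 121 and 107 CPM without and 170, 187 and 172 CPM with N6L, again without overlap (log2 change 0.68, SE 0.21, edgeR FDR 0.0300). Usp28, which stabilises Myc, had a log2 change of 0.64 (edgeR FDR 0.0394), and Usp42, a p53 deubiquitinase, one of 0.69 (edgeR FDR 0.0158). Usp2, a regulator of Mdm2 and cyclin D1, had a log2 change of 1.36 (edgeR FDR 0.0153) from 0.234 to 0.617 CPM on average, which is 4 to 9 counts in the NT and 15 to 34 counts in the N6L cytoplasmic libraries. Usp29, the fifth of the list, was not tested.

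Of 9 tested regulators of histones and DNA repair 2 were called, near the share of all genes (28.3%), and their median log2 change of 0.46 was close to that of all members. The 2 that rose were Usp22, the deubiquitinase of the SAGA coactivator, by a log2 value of 0.54 (edgeR FDR 0.0207), and Usp3, which acts on histone H2A, by 0.48 (edgeR FDR 0.0231). Usp1, which acts on Fancd2 and Pcna, had 82.1 ± 11.8 CPM in NT and 100 ± 7.20 CPM in N6L cytoplasm (SD, n = 3; log2 change 0.29, edgeR FDR 0.260). Of the 3 enzymes activated by the Uaf1 protein, namely Usp1, Usp12 and Usp46, only Usp12 passed the test, with a log2 change of 0.98 (edgeR FDR 0.0113). Difference in response between these relatives was not tested.

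Of the 6 genes linked to receptors, endosomes and the endoplasmic reticulum, the non-protease Usp6nl among them, 3 rose, where 14.5% of all genes did. These were Usp19, anchored in the endoplasmic reticulum, with a log2 change of 0.64 (edgeR FDR 0.0345), Usp20, a receptor-recycling enzyme, with 0.72 (edgeR FDR 0.0122), and Usp32, a membrane-associated USP, with 0.96 (edgeR FDR 0.0152). Usp33, the close relative of Usp20, had an almost equal log2 change of 0.71 with a larger SE of 0.28 and missed the limit (edgeR FDR 0.0709). Usp25, placed with the innate immune USPs, rose from 23.4, 27.9 and 17.1 CPM to 38.7, 53.1 and 45.6 CPM (log2 change 1.01, edgeR FDR 0.0110). Usp38, outside these groups, rose by a log2 value of 0.66 (edgeR FDR 0.0361).

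Usp43 and Usp17la fell. Usp43 (chromosome 11, 67854523-67922153) measured 20.1, 19.6 and 19.0 CPM in NT and 14.4, 10.6 and 10.9 CPM in N6L cytoplasm (log2 change -0.71, SE 0.16, edgeR FDR 0.00694). Usp17la, of the multicopy Usp17l family (chromosome 7, 104857009-104862667), went from 12.1, 9.58 and 5.31 CPM to 4.27, 2.66 and 2.74 CPM (log2 change -1.50, SE 0.36, edgeR FDR 0.00983). Neither gene's groups overlapped, although NT culture 4 of Usp17la lay close to N6L culture 1. Of the 50-base stretches of the Usp17la transcripts, 20.1% also occur in other genes, mostly other Usp17l copies, and how reads that fit several places were counted is not given in the sources used here. Exons of an annotated gene on the other strand cover 12.8% of those of Usp43, and the strand setting of the counting is not given either.

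The nucleolar and ribosomal USPs did not pass the test in cytoplasm. Usp36, a nucleolar deubiquitinase, had 103 ± 14.2 CPM in NT and 122 ± 8.98 CPM in N6L cells (SD, n = 3; log2 change 0.24, SE 0.16, edgeR FDR 0.261). Usp10 had 183 ± 9.95 and 216 ± 6.09 CPM (log2 change 0.24, edgeR FDR 0.159). Usp16, which acts on histone H2A and in maturation of the small ribosomal subunit, had a log2 change of 0.41 (edgeR FDR 0.171), and Usp21 one of -0.02 (edgeR FDR 0.944). The abundant Usp39 and Usp5 had log2 changes of -0.19 (edgeR FDR 0.245) and 0.11 (edgeR FDR 0.611). Usp14 and Usp4 had values of -0.04 (edgeR FDR 0.916) and 0.28 (edgeR FDR 0.125). Usp30, which opposes mitophagy, had 0.20 (edgeR FDR 0.317), and Usp18, the ISG15-removing protease, had 0.79 with an SE of 0.69 (edgeR FDR 0.399) at up to 17 counts a library.

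Of the other members in cytoplasm, several had FDR values between 0.05 and 0.1. Usp47, a relative of Usp7 that acts in DNA repair, measured 117, 118 and 94.2 CPM in NT and 151, 184 and 184 CPM in N6L cells, without overlap (log2 change 0.66, edgeR FDR 0.0580). Usp8, an endosomal enzyme, measured 108, 86.1 and 62.7 CPM in NT and 117, 142 and 129 CPM in N6L cells (log2 change 0.60, edgeR FDR 0.0801). Usp34, which acts on axin in Wnt signalling, measured 79.0, 82.1 and 56.6 CPM in NT and 90.3, 134 and 106 CPM in N6L cells (log2 change 0.60, edgeR FDR 0.0908). In all 3 the N6L cultures lay above the NT cultures, with NT culture 4 the lowest. Usp35 (log2 change 0.61) and Usp48 (0.50) had FDR values of 0.0578 and 0.0972. The log2 changes of Usp40, Usp24, Usp27x, Usp6nl, Usp45, Usp46, Usp15, Usp37, Usp31, Usp49 and Usp11 ran from 0.50 to 0.00, none called, and that of Usp17le was -0.61 with an SE of 0.51.

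**Figure D2:**
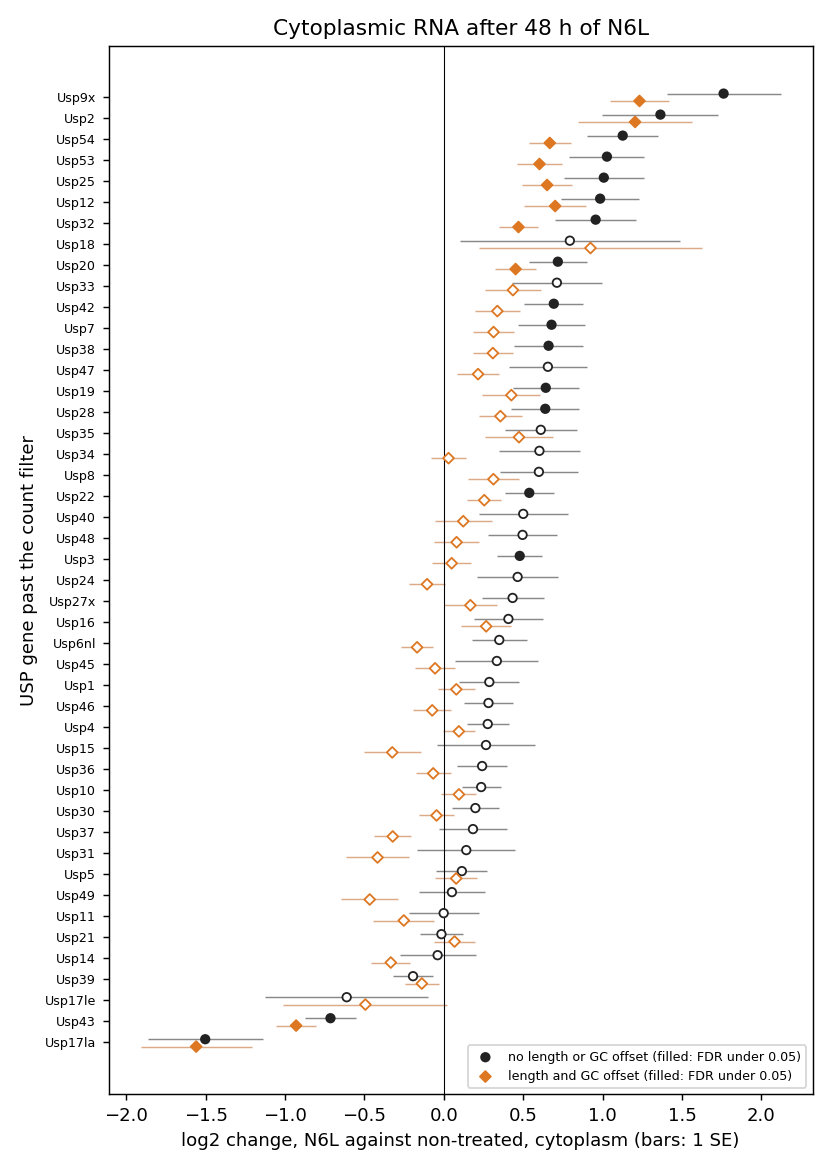
Log2 change of each of the 46 tested USP genes in cytoplasm, N6L against non-treated, with 1 SE (3 cultures a group). Black points are the fit without an offset and orange diamonds the fit with an offset for transcript length and GC content; filled symbols have an FDR under 0.05. Most orange diamonds lie to the left of their black points, and 8 of the 15 increases stay filled.

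**Figure D3:**
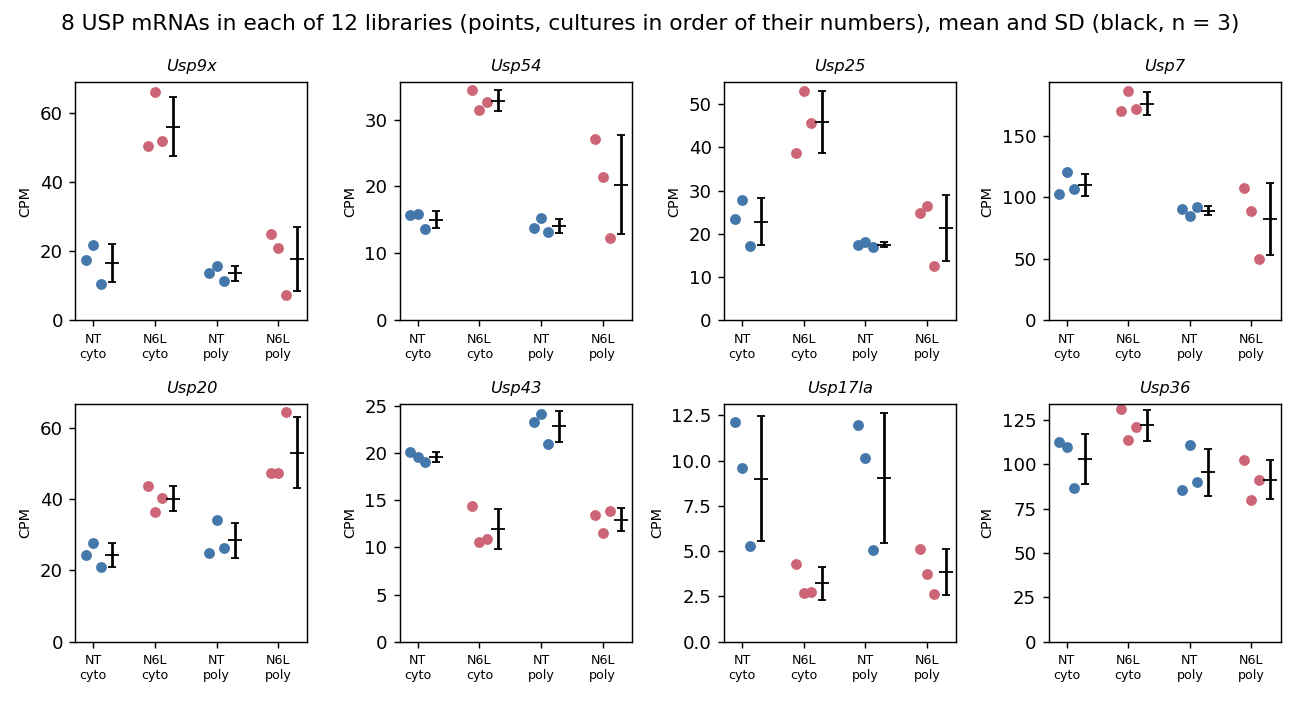
CPM of 8 USP mRNAs in each library (blue, non-treated; red, N6L; 3 cultures a group), with the mean and SD in black. Cytoplasmic N6L values stand above NT for Usp9x, Usp54, Usp25, Usp7 and Usp20 and below for Usp43 and Usp17la, and N6L polysome culture 3 is the lowest of its group for Usp9x, Usp54, Usp25 and Usp7.

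USP transcripts are long, and length ran with the cytoplasmic change across all genes. The longest transcript of the 46 members had a median of 4732 bases, against 3102 for all tested genes. Across 13867 genes with an annotation, the log2 change correlated with log2 length by a Pearson r of 0.432, and across the 46 members by 0.368; genes are not independent replicates. Among all genes of 3000 to 5000 bases the median log2 change was 0.17, and among the 22 USP genes of that class it was 0.49. From 5000 to 7000 bases these medians were 0.40 and 0.58 (10 USP genes). Above 7000 bases the order was the other way, with 0.52 over all genes and 0.35 over the 9 USP genes, and below 3000 bases they were -0.26 and -0.19 (5 USP genes). With an offset per library that removes the trend with length and GC content, 10 of 46 members were called, 8 higher and 2 lower, and the median log2 change was 0.10, against -0.04 over all genes. Under that offset 30.6% of all genes were called. The 8 increases were those of Usp9x, Usp2, Usp54, Usp53, Usp25, Usp12, Usp32 and Usp20, and the decreases those of Usp43 and Usp17la. Usp9x kept a log2 change of 1.23 (edgeR FDR 0.000805), Usp54 one of 0.67 and Usp20 one of 0.45, while Usp7 had 0.31 (edgeR FDR 0.0782). Of the members called with neither fit, 11 changed sign. Whether the trend with length is part of the response to N6L or of the preparation of these libraries was not tested. The count also rested on single cultures: it was 3 without N6L culture 2 and 6 without NT culture 4, while 9.24% and 15.5% of all genes were called there, and 12 to 21 without any of the others (16.0% to 28.7% of all genes). Usp9x, Usp54 and Usp43 were called under all 17 alternative settings.

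**Figure D4:**
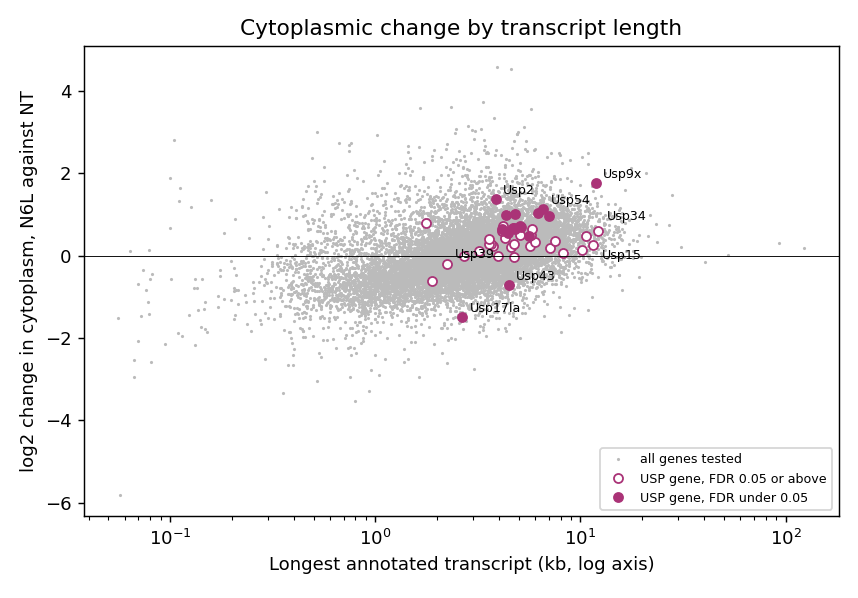
Log2 change in cytoplasm (N6L against non-treated) of each tested gene against the length of its longest annotated transcript in kb, on a log axis; grey dots are all genes and purple circles the 46 USP genes, filled where the FDR is under 0.05. Grey dots rise with length. Usp9x lies above, and Usp43 and Usp17la below, the median of all genes of their length class (medians not drawn).

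In polysomal RNA few USP genes differed. Here 4 of 46 members were called, 2 higher and 2 lower, against 9.67% of all genes (6.01% higher and 3.66% lower). The median log2 change was -0.02 over the members and 0.00 over all genes. NT and N6L cultures did not overlap for 7 members, against 25.6% of all genes. Usp20 rose, with 24.8, 34.1 and 26.3 CPM in NT and 47.4, 47.2 and 64.5 CPM in N6L polysomes (log2 change 0.90, SE 0.18, edgeR FDR 0.00966). Usp2 had a log2 change of 1.36 (edgeR FDR 0.0375) on few counts, 3, 5 and 10 in NT and 13, 20 and 14 in N6L polysomes. It was called in 7 of 15 alternatives. Usp43 fell from 23.3, 24.2 and 21.0 CPM to 13.4, 11.6 and 13.9 CPM (log2 change -0.82, SE 0.16, edgeR FDR 0.00808). Usp17la fell from 11.9, 10.1 and 5.06 CPM to 5.14, 3.77 and 2.62 CPM, and its groups overlapped (log2 change -1.22, edgeR FDR 0.0482).

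These 4 were also called in cytoplasm with the same signs, in separate libraries of the same lysates. The polysomal counts were less firm: no member was called without N6L culture 2 (1.04% of all genes), without NT culture 1 (1.44%), or when only the 2 polysomal groups were fitted (2.46%), and with library totals alone 2 were higher and 1 lower (1394 of the 13889 genes). With the length and GC offset 8 were called, and 2780 of all 13889 genes, the added ones being Usp53 and Usp54 as higher and Usp14 and Usp24 as lower. Usp9x, the leading gene in cytoplasm, had 13.6, 15.7 and 11.4 CPM in NT and 25.0, 20.7 and 7.15 CPM in N6L polysomes (log2 change 0.38, SE 0.35, edgeR FDR 0.525). Its N6L culture 3 was the lowest of the 6 polysomal libraries, and both other N6L cultures were the highest. For 28 of the 46 members N6L polysome culture 3 was the lowest of all 12 libraries. Without N6L culture 3 the median polysomal change of the members was 0.14, and 4 were called (7.77% of all genes), among them Usp53 and Usp54 as higher.

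The polysome-to-cytoplasm ratio of a culture compares its 2 libraries and so the share of each mRNA with several ribosomes, relative to all mRNAs. The main tests of it used the group means and did not pair the 2 fractions of a culture. Counts with the culture as a block are given below. In NT cells no USP gene was called by edgeR, as against 0.209% of all genes, and 4 members (8.70%) had an unadjusted p under 0.05, against 13.4% of all genes. DESeq2 called 1.97% of all genes and 1 member, Usp53, whose log2 ratios were -1.15, -1.16 and -0.61 in cultures 1, 2 and 4. The median log2 ratio over the members was -0.19, against 0.03 over all genes.

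In N6L cells many USP mRNAs were lower in polysomes than in cytoplasm. Of 46 members 25 were called (54.3%), against 39% of all genes, and 24 of the 25 were lower, against 20.6% of all genes lower and 18.4% higher. The median log2 difference was -0.60 over the members and 0.03 over all genes. Across genes with an annotation it correlated with log2 length by a Pearson r of -0.549, and across the members by -0.591. With GC content r was 0.514 and 0.788. From 3000 to 5000 bases the medians were -0.14 over all genes and -0.47 over the USP genes. They were -0.55 and -0.71 from 5000 to 7000, -0.90 and -1.15 above that, and 0.39 and 0.27 below 3000 bases. This comparison shares the N6L cytoplasmic libraries with the cytoplasmic comparison above, so both results are not independent. The largest value was again that of Usp9x, whose log2 ratio was -0.35, -0.46 and 0.12 in NT cultures 1, 2 and 4 and -1.01, -1.66 and -2.84 in N6L cultures 1, 2 and 3 (N6L log2 difference -1.66, SE 0.36, edgeR FDR 0.00565).

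The 24 belonged to 8 of the 11 role groups or to none of them. Those of Smad, Hippo and Wnt signalling included Usp15 (log2 difference -1.25) and Usp34 (-1.31), and those of chromatin and repair Usp24 (-1.15), Usp47 (-1.16), Usp48 (-0.91), Usp1 (-0.80), Usp27x (-0.57) and Usp22 (-0.42). Usp7 had a log2 difference of -1.10, Usp42 of -0.69 and Usp28 of -0.63. Usp16 stood at -1.11 and its relative Usp45 at -1.21. Endosomal Usp8, which deubiquitinates receptors, had -1.09, Usp33 -1.04 and Usp32 -1.26. Of the rest, Usp53 had -1.49, Usp25 -1.10, Usp14 -0.93, Usp37 -0.82, Usp54 -0.69, Usp38 -0.68 and Usp46 -0.43. The only member higher in polysomes was Usp21 (log2 difference 0.52, edgeR FDR 0.0109), which removes ubiquitin from histones and ribosomal proteins. With the length and GC offset Usp21 had 0.12 (edgeR FDR 0.533). Usp34 and Usp15 had -0.05 and -0.13 there and were no longer called. Usp36 and Usp10 had log2 differences of -0.42 (edgeR FDR 0.0506) and -0.24 (edgeR FDR 0.138), and Usp39 and Usp5 of 0.28 (edgeR FDR 0.0800) and 0.10 (edgeR FDR 0.634).

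The low ratios were unevenly spread over the N6L cultures. The median log2 ratio of the members was -0.35, -0.51 and -0.92 in N6L cultures 1, 2 and 3, against -0.20, -0.23 and -0.10 in the NT cultures. N6L culture 3 held the lowest of the 6 ratios for 33 of 46 members. Without it 16 members were called (11.7% of all genes) and without culture 2, 9 (8.22%). With the length and GC offset 12 were called (20.1% of all genes), 9 lower and 3 higher (Usp20, Usp3 and Usp6nl), the median was -0.23, and Usp9x had -0.43 (edgeR FDR 0.111). Usp7, Usp8, Usp25, Usp16, Usp32, Usp47, Usp48, Usp53 and Usp1 were lower also with the offset. A total of 8 members changed sign under the offset, and 13 lay above 0, against 7 without it. Usp6nl went from -0.45 to 0.31 and Usp3 from -0.10 to 0.49, and both were called there. Usp37 and Usp46, called as lower without the offset, went to 0.08 and 0.27 and did not pass the test with it. Usp5, Usp12, Usp31 and Usp49 were called in neither fit. With the culture as a block, since both fractions come from one lysate, 34 members were called, and 53.7% of all genes.

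**Figure D5:**
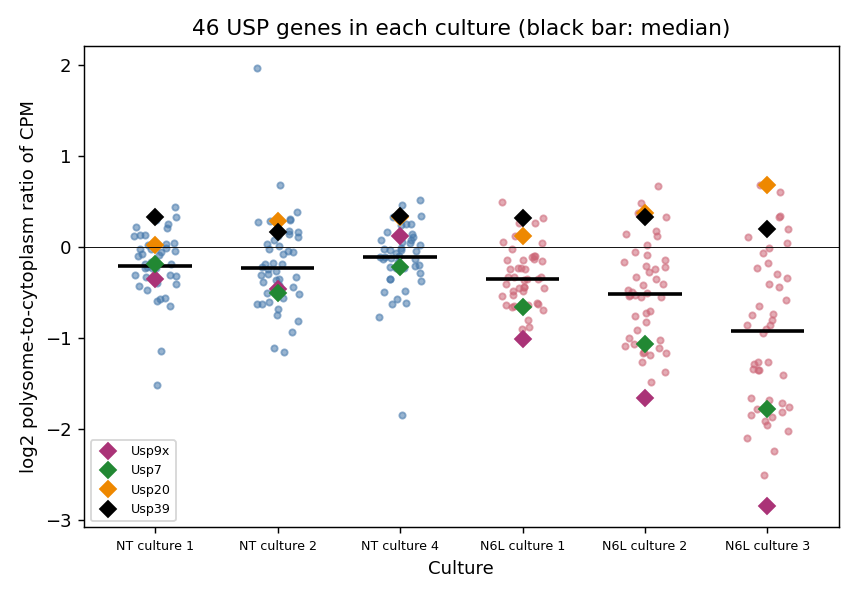
Log2 polysome-to-cytoplasm ratio of the 46 tested USP genes in each culture (dots, 1 per gene; black bars, medians), with Usp9x, Usp7, Usp20 and Usp39 as diamonds. Medians lie between -0.23 and -0.10 in non-treated cultures and at -0.35, -0.51 and -0.92 in N6L cultures 1, 2 and 3, while Usp39 stays above 0 in all 6.

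The difference between the N6L and NT ratios, which asks whether polysome loading itself changed with treatment, was called by edgeR for no member and for 0% of the 13889 genes, with a smallest FDR of 0.555 among the members. DESeq2 called none either. At an unadjusted p under 0.05 there were 7 members and 1074 genes in all. Of 46 values 41 were below 0, with a median log2 difference of -0.39, against 0.01 over all genes, and 49.3% of all genes below 0. The 3 N6L ratios did not overlap the 3 NT ratios for 21 members, all lower with N6L; over all genes 29.7% did not overlap, 14.4% lower. The simulated test recovered 50% of changed genes in this comparison, 18% of those set to a log2 change of 1 and 82% of those set to 2. Changes of the size of the members' median could thus mostly be missed. The differences of ratios also ran with log2 length, by a Pearson r of -0.459 over all annotated genes and -0.615 over the members. Above 7000 bases the medians were -0.58 over all genes and -0.59 over the USP genes. They were -0.31 and -0.57 from 5000 to 7000, -0.08 and -0.38 from 3000 to 5000, and 0.26 and 0.27 below 3000 bases. The cause of this trend was not tested.

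The 6 members with the largest difference at 5 CPM or more were Usp9x, Usp24, Usp34, Usp32, Usp47 and Usp7. Their log2 differences were -1.38 (SE 0.50), -0.84 (SE 0.36), -0.83 (SE 0.36), -0.82 (SE 0.36), -0.80 (SE 0.35) and -0.79 (SE 0.30). For Usp9x, Usp24, Usp32 and Usp7 the ratios of the cultures did not overlap between treatments (exact permutation test, two-sided, p = 0.1, the smallest that 3 against 3 allows). For Usp34 and Usp47 they did (p = 0.2). Usp9x was called in 1 of 16 alternatives, that without a filter on low counts, and had -0.80 with the length and GC offset. With that offset Usp24 had -0.26, Usp34 -0.12, Usp32 -0.33, Usp47 -0.41 and Usp7 -0.49. The median of the members was -0.24 without N6L culture 3 and -0.22 with the offset.

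Pairs of close relatives show how the members differ among themselves, and their differences were not tested. Usp20 and Usp33 had nearly the same cytoplasmic log2 change (0.72 and 0.71), while the N6L log2 difference between polysomes and cytoplasm was 0.40 for Usp20 and -1.04 for Usp33. Usp12 and Usp46 had cytoplasmic log2 changes of 0.98 and 0.28. Usp7 and Usp47 ran close in every comparison, with cytoplasmic log2 changes of 0.68 and 0.66 and N6L polysome-to-cytoplasm log2 differences of -1.10 and -1.16. Usp4, Usp15 and Usp11 had cytoplasmic log2 changes of 0.28, 0.27 and 0.00, and N6L polysome-to-cytoplasm log2 differences of -0.17, -1.25 and -0.51. Usp31 had a cytoplasmic log2 change of 0.14 and its relative Usp43 one of -0.71. Sequence shared with other genes limits some values. Of the 50-base stretches of Usp33, 21.2% also occur in other genes, and exons of genes on the other strand cover 24.4% of its exons, so its contrast with Usp20, which shares none, is uncertain. Among further members, 49.8% of the stretches of Usp49, 25.4% of those of Usp14 and 21.4% of those of Usp1 also occur in other genes.

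Of 34 tested genes listed as other deubiquitinases, 4 rose in cytoplasm and 3 fell, where 14.5% and 13.8% of all genes did. Their median log2 change was 0.01. Tnfaip3, the NF-kB-restraining enzyme A20, had a cytoplasmic log2 change of 2.04 (SE 0.35, edgeR FDR 0.00222), and Mindy2, which trims lysine-48 chains, one of 1.28 (edgeR FDR 0.00228). Uchl1 and Uchl3, small ubiquitin hydrolases, had -1.22 (edgeR FDR 0.0144) and -0.87 (edgeR FDR 0.00625). In the N6L polysome-to-cytoplasm comparison 9 of the 34 were lower and 4 higher, against 20.6% and 18.4% of all genes. These values and those of the gene lists that follow come from the fit without the length and GC offset.

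Proteins that bind and activate USPs were read beside them. Of 11 partner genes 4 rose and 1 fell in cytoplasm, where 28.3% of all genes were called. Wdr48, the Uaf1 cofactor of Usp1, Usp12 and Usp46, had a log2 change of 0.50 (edgeR FDR 0.0308), and Wdr20, another cofactor of Usp12 and Usp46, 0.61 (edgeR FDR 0.0273). Atad5, which guides Usp1 to Pcna, had 0.83 (edgeR FDR 0.0365). Of the Usp22 module, Atxn7 had 1.11 (edgeR FDR 0.00772) and the small subunit Eny2 -0.66 (edgeR FDR 0.0221). No partner was called in polysomes.

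The counts that follow stand beside the same 28.3% in cytoplasm and 9.67% in polysomes. Of 7 genes for ubiquitin and its activating enzymes, the ISG15-activating enzyme Uba7 rose in cytoplasm (log2 change 1.10, edgeR FDR 0.0153) and the ubiquitin-ribosomal fusion gene Rps27a fell (-0.68, edgeR FDR 0.0133). Ubb, which encodes ubiquitin repeats, had a cytoplasmic log2 change of 0.04 and was not called. Of the 5 ISG15 genes, Uba7 rose in cytoplasm, and Uba7 and Ube2l6, the conjugating enzyme, rose in polysomes. Among 10 substrates of Usp36, Usp7, Usp1 and Usp28, Mdm2 rose in cytoplasm (log2 change 0.90, edgeR FDR 0.0153), and Fbl (-0.65, edgeR FDR 0.0147) and Pcna (-0.51, edgeR FDR 0.0347) fell. Trp53 had -0.37 (edgeR FDR 0.0508) and Myc 0.22 (edgeR FDR 0.377). Ncl, the mRNA of the protein that N6L targets, had a cytoplasmic log2 change of -0.11 (edgeR FDR 0.812) and was lower in polysomes than in cytoplasm in N6L cells (log2 difference -1.30, edgeR FDR 0.00837). Its polysomal level there was 798, 478 and 231 CPM in cultures 1, 2 and 3. In NT cells Ncl was also lower in polysomes, at 885, 813 and 923 CPM, against 974, 1556 and 1477 CPM in cytoplasm. No gene was called for the difference of ratios.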

How the data were processed

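The authors aligned reads with STAR to mm10 and counted them per gene with HTSeq 0.5.3, after bcl2fastq 2.18.0.12, per the labels and methods. The deposited values are raw counts for 4 technical replicates of each of 12 libraries, 48 sets in all, from poly(A)-selected stranded libraries. The annotation, strand setting and treatment of multiply mapping reads could not be read from the sources at hand. Technical replicates agreed nearly within counting error (chi-square divided by degrees of freedom, 1.02 to 1.04) and were summed. In N6L culture 2, 1 label field of 3 cytoplasmic technical replicates names culture 1. They were kept by title, and an alternative leaves them out.

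Of 50600 genes 50376 matched GENCODE vM21, which gave symbols, positions, length and GC content. No row was without a gene. Counts were filtered with filterByExpr (13889 genes), scaled by TMM and fitted in edgeR 4.0.16 (R 4.3.3; quasi-likelihood, 1 mean for each of 4 groups, all 12 libraries). The Benjamini-Hochberg adjustment ran over all tested genes. CPM are TMM-scaled, and per-culture ratios use log2 CPM with a prior count of 2. SEs are the log2 change divided by the square root of F. Tested on simulated data with 200 of 13889 genes changed, the fit found 73% of them for cytoplasm, 72% for polysomes and 50% for the difference of ratios. These shares pool log2 changes of 1 and 2 in either direction. At a log2 change of 1 they were 54%, 48% and 18%. The offset fits a natural spline of log2 length and GC content per library. Same-culture deviations of the 2 fractions correlated by 0.0368 to 0.645, and their pairing comes from the shared lysate. The alternatives are given below.

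The members and lists were chosen with earlier results of these data known. Named in full were the 12 largest called cytoplasmic changes and all that fell, up to 8 called in polysomes, all called for the ratios, the 6 largest differences of ratios at a mean of 5 CPM or more, a fixed set of 12, and the 5 highest per kb. Protein sequences were not used here.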

Additional observations from a re-analysis of the deposited data

How the results depend on the processing

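The count of USP genes called in cytoplasm (17) was within 1.5 times in 14 of 17 alternatives. It was 10 with the length and GC offset (30.6% of all genes). Leaving out 1 culture gave 3 (without N6L 2) to 21, with 9.24% to 28.7% of all genes. The polysomal count (4) was 2 with technical replicate a alone, 0 with only the 2 groups fitted, 8 with the offset, 9 with the offset and the replicate block, and 0 to 4 leaving out 1 culture. For the NT ratio (0), DESeq2, the fit without a filter and the fit of only the 2 groups each called 1. The culture block with the offset also called 1 (4.74%), and leaving out 1 culture gave 0 to 1 (0% to 2.38%). For the N6L ratio (25) the offset gave 12 (20.1% of all genes), and leaving out 1 culture 9 to 25 (8.22% to 41.8%). For the difference of ratios (0) the fit without a filter called 1 (0.440% of all genes). For the N6L ratio 8 members changed sign under the offset, among them Usp6nl and Usp3, which were called higher there (0.31 and 0.49). Usp37 and Usp46, called without it, went to 0.084 and 0.27, and under the offset with the culture block to 0.085 and 0.26.

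With the replicate number as a block, 21 members were called in cytoplasm (34.1% of all genes) and 3 in polysomes (9.76%). For the ratios the block was the culture. It gave 0 members for the NT ratio (1.46% of all genes), 34 for the N6L ratio (53.7%) and 0 for the difference of ratios (0%). With these blocks and the offset together the 5 counts were 14 (33.1% of all genes), 9 (20.9%), 1 (4.74%), 18 (36.3%) and 0 (0%). In the replicate-number block, numbers shared by NT and N6L cultures are only numbers: their deviations correlated by 0.00756 to 0.296. Library totals alone moved the median cytoplasmic change of all genes from 0.04 to 0.19, and that of the members from 0.47 to 0.61. The 3 cultures a group limit all tests, and Usp2, Usp17le and Usp18 also had few counts. The cause of the changes under alternative settings was not tested.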
